A study of Mus musculus with 2 samples.

Results

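The Ly6 family is represented here by 7 genes, Ly6a, Ly6c1, Ly6d, Ly6e, Ly6f, Ly6i and Ly6k, out of 27597 names on a mouse expression array. They were chosen by measured values of the same knock-out against wild-type contrast described below, in which Ly6i was higher in the knock-out, together with their family name. Their ratios are therefore given as a description without a test. The RNA was that of B cells, taken by flow sorting out of peripheral lymph nodes. The donors were wild-type C57BL/6J mice and B6.129P2(C)-Ccr7tm1Rfor/J mice, labelled as a Ccr7 knock-out. Both groups were untreated as far as the labels say, and age and sort markers are not given in the sources used here. Each genotype contributed 6 sorted samples, and RNA was combined in pools of 3, so that each of 2 two-colour arrays held 1 pool of each genotype. The knock-out pool carried Cy5 on array 1 and Cy3 on array 2. The unit of replication is the array (n = 2), and pooling hides the spread between the 12 sorted samples.

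Ly6 proteins are small, cysteine-rich proteins of the uPAR-type fold, and most are held on the outer face of the cell membrane by a glycosylphosphatidylinositol (GPI) anchor. Several of them are surface markers of lymphocytes and myeloid cells, and interferons are known to induce Ly6a, Ly6c and Ly6e. The genes lie in a cluster on mouse chromosome 15, and some of them are close copies of each other.

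The array held 8 probes for the 7 genes, and 6 of the genes were found under their own name in the files. Ly6c1 had 2 probes, both under the older name Ly6c. The first carries the RefSeq accession NM_010741 of Ly6c1, and is called the RefSeq probe here. The second carries D86232, an accession matched to Ly6c1 only through the older name. It lies 62925 bases further along, at chr15:74935462-74935520 on the mm8 build that the file headers name, against chr15:74872537-74872596 for the RefSeq probe. The neighbouring gene Ly6c2 had no probe of its own name, and whether the D86232 probe measures Ly6c1, Ly6c2 or both cannot be settled from the files. Exons and UTRs at these positions were not assigned, because no mm8 annotation was used here.

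The probe sequences are shown because they decide which member a value belongs to. Most pairs of the Ly6 probes had little in common. The best ungapped 30-base match was computed for each of the 28 pairs, and it ran from 13 to 17 identical bases in 27 of them, with a median over all pairs of 15. The exception was Ly6a against the Ly6c1 RefSeq probe, which matched at 26 of 30 bases and, over their whole overlap, at 33 of 40. The aligned stretches are probe positions 6 to 35 for Ly6a and 26 to 55 for Ly6c1, counted from the 5′ end, with the differing bases in capitals.
Ly6a: gttatagaagCtccaaGgtgggAGtagtgt
Ly6c1 (RefSeq probe): gttatagaagGtccaaTgtgggGAtagtgt
The opening 30 bases of the Ly6i probe and of the D86232 probe follow, since the results turn on them too.
Ly6i: aacttccaaggttttatctgtgcagccctt
Ly6c (D86232 probe): tattatactatcaccatccacacataagta
The D86232 and Ly6c1 RefSeq probes, both called Ly6c in the files, matched each other at no more than 15 of 30 bases. In the printed orientation, no Ly6 probe shared an exact run longer than 15 bases with a different probe on the array. On the opposite strand the same held for 7 of the 8, while the Ly6c1 RefSeq probe overlapped an unnamed probe by 44 bases. That probe reads the other strand and was not above background in either genotype on either array. Cross-hybridization between transcripts was not tested, as only probes and not transcripts were compared.

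All 8 probes were well above background in both genotypes on both arrays, so every value is a measured one rather than a bound. The scanner read each array at 2 gains, and for the brightest spots the value is a low-gain reading multiplied up (called scaled up here). That held for 4 of the 8 probes, those for Ly6a, Ly6d, Ly6e and the D86232 probe, on both arrays. Over the whole arrays, 68.2% of spots were above background in the knock-out channel of array 1 and 58.4% on array 2, against 63.1% and 68.8% for wild-type. Among the 1769 genes of the brightest decile, 1599 of them scaled up, the oriented ratios of both arrays correlated at r = -0.50 across genes, which share arrays and are not independent replicates. The Ccr7 transcript itself had a log2 knock-out over wild-type ratio of -1.11 on array 1 and -0.74 on array 2. The mean was -0.93 ± 0.15 (limma's moderated SE, which draws on the spread of all genes, n = 2). That is 1.90-fold lower, with limma adjusted p = 0.143. The Ccr7 probe was above background in the knock-out on both arrays. Whether that probe lies in the altered part of the gene was not checked.

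Levels below are log2 normalized intensities in one genotype on one array, and ratios are log2 knock-out over wild-type on one array after loess normalization. Levels are compared within a probe only, never between probes.

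Ly6i, a member of the cluster, had the highest ratio of the 8 probes in the mean of both arrays, and on array 2. On array 1 Ly6d and Ly6e were higher. Its level was 11.90 in the knock-out pool and 11.37 in the wild-type pool of array 1, and 13.02 and 12.24 on array 2. The knock-out was higher within each array, but the wild-type pool of array 2 lay above the knock-out pool of array 1, so the levels of both genotypes overlapped. The ratios were 0.53 and 0.78, a mean of 0.65 ± 0.18 (SD, n = 2), or 1.57-fold higher in the knock-out. Of the 17691 genes tested, 63 (0.356%) had a mean ratio at or above that of Ly6i. The mean level of the Ly6i probe differed between the arrays by 0.99, where the median absolute difference of all genes was 0.193 and 2.64% of genes lay as far apart. The Ly6i probe thus differed more between the arrays than between the genotypes. Before normalization, the Ly6i spot read 4920 in the knock-out and 3183 in wild-type on array 1, and 4366 against 5802 on array 2. The raw knock-out signal on array 2 was below wild-type at all 8 Ly6 probes, from 0.231 times wild-type at Ly6e to 0.752 times at Ly6i, so the array 2 ratio of Ly6i was positive only after normalization. With each array only centred on its median, the Ly6i ratios were 0.59 and 0.07. With no within-array normalization they were 0.63 and -0.41. In the authors' deposited table, which at this probe holds the scanner program's own normalized ratio, Ly6i stood at 0.62 and 0.73.

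**Figure D1:**
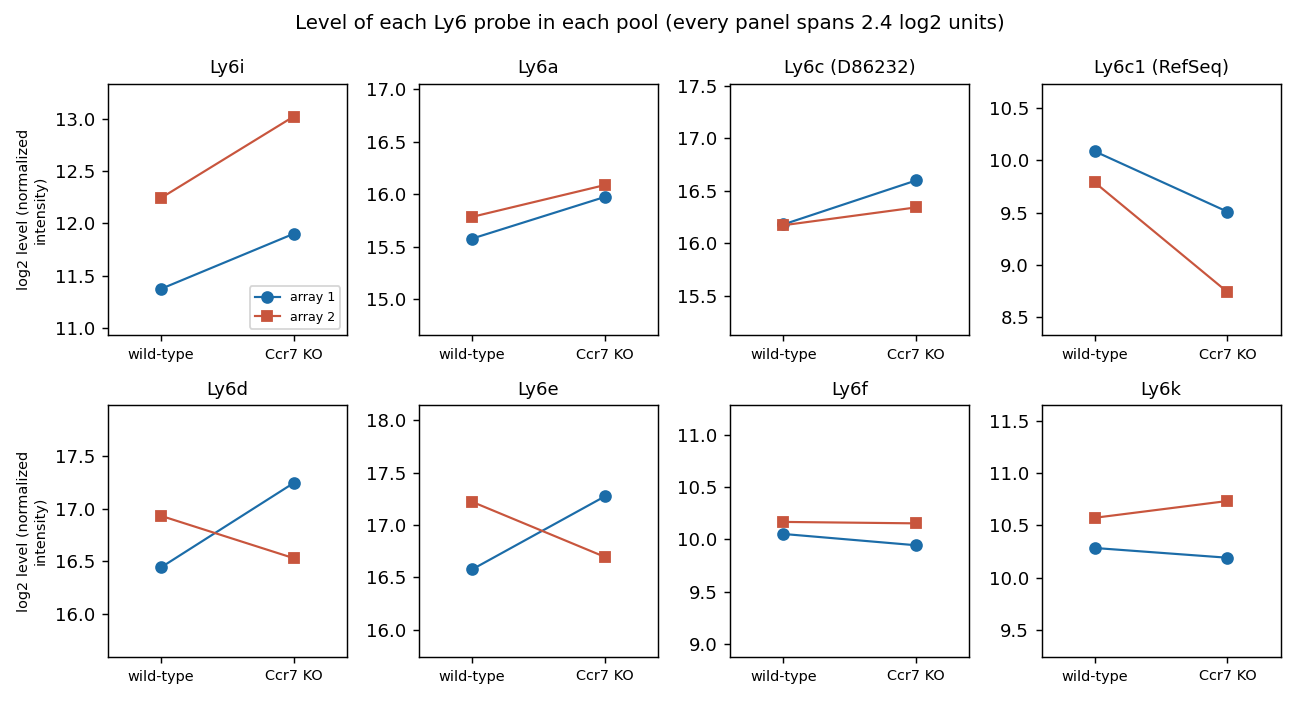
Log2 level of each Ly6 probe (vertical axis, normalized intensity) in the wild-type and knock-out pool of each array, with a line joining the pools of the same array; there is 1 point per pool and every panel spans the same range. Both lines rise for Ly6i, Ly6a and the D86232 probe, both fall for the Ly6c1 RefSeq probe, and they cross for Ly6d and Ly6e.

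The Ly6c1 RefSeq probe moved the other way. Ly6c1 belongs to the Ly6C antigens, which are used to tell monocyte subsets apart and are also found on plasma cells and T cells. The RefSeq probe stood at 9.51 in the knock-out and 10.08 in wild-type on array 1, and at 8.74 and 9.79 on array 2. Both knock-out pools were below both wild-type pools. The ratios were -0.58 and -1.05, a mean of -0.81 ± 0.33 (SD, n = 2), or 1.75-fold lower in the knock-out. Of all genes tested, each taken at its brightest kept probe, 57 (0.322%) had a mean ratio at or below this value. The RefSeq probe is the dimmer of its gene and so is not itself in that set. The raw signals were 900 and 1270 on array 1 and 284 and 1046 on array 2, again knock-out before wild-type. The knock-out was thus also lower before normalization on both arrays. On array 2 that held for every Ly6 probe, so the raw direction there is not particular to this probe. The deposited table gave -0.63 and -1.22.

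The D86232 probe, called Ly6c in the files as well, did not show that decrease. It stood at 16.60 in the knock-out and 16.18 in wild-type on array 1, and at 16.34 and 16.17 on array 2. Both knock-out pools were above both wild-type pools, by little on array 2. The ratios were 0.42 and 0.17, a mean of 0.30 ± 0.18 (SD, n = 2), or 1.23-fold higher. This probe was scaled up, and in the deposited table its ratios had opposite signs, -0.23 and 0.37. With both channels treated separately and quantile normalized, they were -0.44 and 0.71. As the brighter of the Ly6c1 probes it stood for the gene in the fit over all genes, and the mean of both probes was -0.26.

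Ly6a encodes Sca-1, a marker of blood stem cells that is also carried by many activated lymphocytes. Its level was 15.97 in the knock-out and 15.58 in wild-type on array 1, and 16.09 and 15.78 on array 2. Both knock-out pools were above both wild-type pools. The ratios were 0.40 and 0.30, a mean of 0.35 ± 0.07 (SD, n = 2), or 1.28-fold higher. The probe was scaled up on both arrays. The deposited table gave 0.15 and 0.44, with no within-array normalization the mean was -0.15, and under median centring the arrays had opposite signs, 0.83 and -0.70.

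Ly6d and Ly6e changed sign with the array. Ly6d marks lymphoid progenitors committed to the B lineage, and Ly6e is an interferon-induced protein that affects the entry of several viruses into cells. Ly6d stood at 17.25 in the knock-out and 16.44 in wild-type on array 1, and at 16.53 and 16.93 on array 2. Ly6e stood at 17.27 and 16.58 on array 1, and at 16.70 and 17.22 on array 2. In both genes the pool labelled with Cy5 was the brighter on each array. The ratios were 0.81 and -0.40 for Ly6d, a mean of 0.20 ± 0.86 (SD, n = 2), and 0.70 and -0.53 for Ly6e, a mean of 0.09 ± 0.86 (SD, n = 2). For each gene the spread between arrays exceeded the mean. In the deposited table the signs were turned: Ly6d had -0.30 and 0.21, and Ly6e had -0.56 and 0.50. The scanner program's own log ratio, from which the deposited table departs at these probes, kept the signs. It was 0.24 and -0.10 for Ly6d, and 0.13 and -0.22 for Ly6e. Neither gene has a settled direction in these data.

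Ly6f and Ly6k were near equal in both genotypes. Ly6k is best known from testis and sperm. Ly6f stood at 9.94 in the knock-out and 10.05 in wild-type on array 1, and at 10.15 and 10.17 on array 2. Its ratios were -0.11 and -0.01, a mean of -0.06 ± 0.07 (SD, n = 2). Ly6k stood at 10.19 and 10.28 on array 1, and at 10.73 and 10.57 on array 2. Its ratios were -0.09 and 0.16, a mean of 0.03 ± 0.18 (SD, n = 2). In both genes the levels of the genotypes overlapped and the mean did not exceed the spread between arrays.

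**Figure D2:**
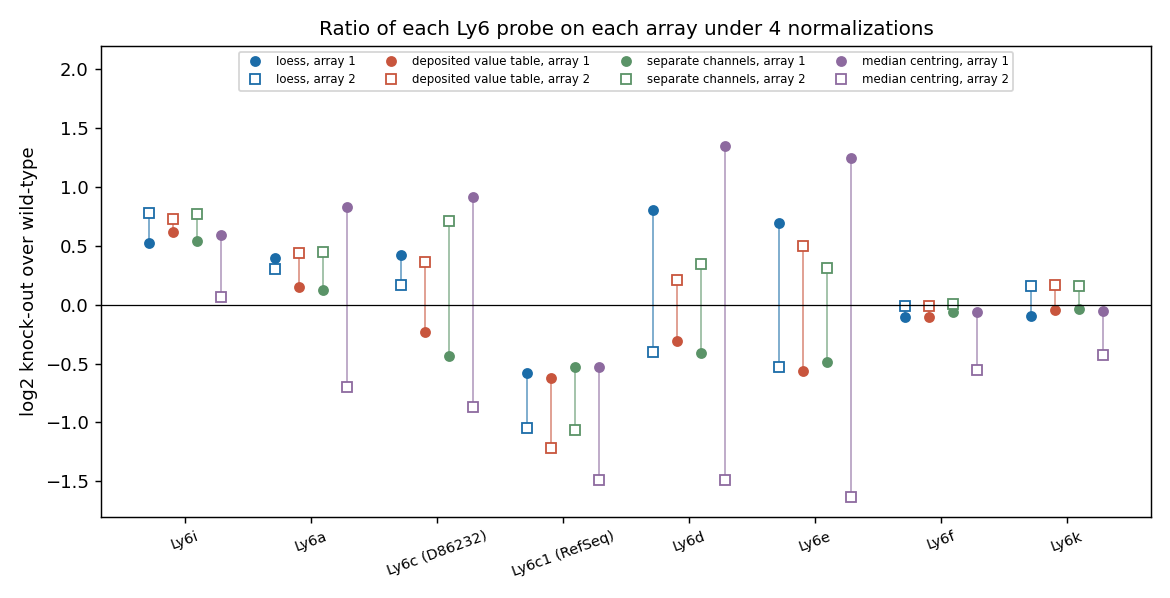
Log2 knock-out over wild-type of each Ly6 probe on array 1 (filled) and array 2 (open) under 4 normalizations, the vertical line joining both arrays. The Ly6i points lie above 0 and the Ly6c1 RefSeq points below 0 on both arrays in all 4, while Ly6d and Ly6e have 1 array on each side of 0 in every one.

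The brighter Ly6c1 probe, D86232, was taken for its gene here. By that count, 3 of the 7 genes were higher in the knock-out on both arrays (Ly6i, Ly6a and Ly6c1). Of the others, 1 was lower on both (Ly6f) and 3 had opposite signs. Whether D86232 measures Ly6c1 is not settled, and the Ly6c1 RefSeq probe was lower on both arrays. Over all genes, 24.2% were higher on both arrays and 30% were lower on both. Levels did not overlap between genotypes, with the knock-out above, at Ly6a and the D86232 probe, as at 9.56% of all genes. They did not overlap with the knock-out below at the Ly6c1 RefSeq probe, as at 13.3% of all genes. That share takes each gene at its brightest kept probe, which the RefSeq probe is not. The median mean ratio of the 7 genes was 0.20, beside -0.01 for all genes. In limma's fit over all genes, 0.102% were past an adjusted p of 0.05, 0.0678% higher and 0.0339% lower in the knock-out (12 and 6 genes), and none of the 7 was among them. That balance turned with the processing: under a robust prior with an intensity trend, 30 genes were higher and 48 lower, against 44 and 83 without scaled-up probes, 18 and 13 with each probe tested separately, 11 and 1 with plain background subtraction, and 9 and 0 where both channels had to be above background. Because the contrast chose the members, nothing is read from these counts.

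The Ly6 probes spanned 510 kb of chromosome 15. Ly6i and Ly6a, neighbours among the members, were both higher on both arrays, while the Ly6c1 RefSeq probe beyond them was lower on both. A tested probe without a gene symbol lies between Ly6i and Ly6a, 3.9 kb after the Ly6i probe. It was lower on both arrays, at -0.51 and -0.17, and was above background in the knock-out on 1 array only. The Ly6i probe, at chr15:74810293-74810352 (mm8), lies 24.0 kb after the Ly6e probe at chr15:74786292-74786351 and 12.1 kb before the Ly6a probe at chr15:74822378-74822437. The RefSeq probe of Ly6c1, with the lowest ratio, follows 62.2 kb after Ly6i, and the D86232 probe 125 kb after it. Ly6f lies at chr15:75099287-75099347, Ly6k at chr15:74624354-74624413 and Ly6d at chr15:74589376-74589435. Of 20 other genes tested from 500 kb before the first member to 500 kb after the last, 0 were past limma's adjusted threshold, beside 0.102% over all genes, and 3 had an unadjusted p under 0.05, beside 9.12% over all genes. On both arrays 3 of them were higher and 5 lower, and 12 had opposite signs, with a median of 0.02. The largest means with a proper symbol were -0.69 for Ly6m, from -1.25 and -0.12, and -0.33 for Arc, a gene of neuronal synapses, from -0.41 and -0.26. The probe of an unnamed transcript between Ly6m and Ly6e had 0.50, from 1.10 and -0.10.

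**Figure D3:**
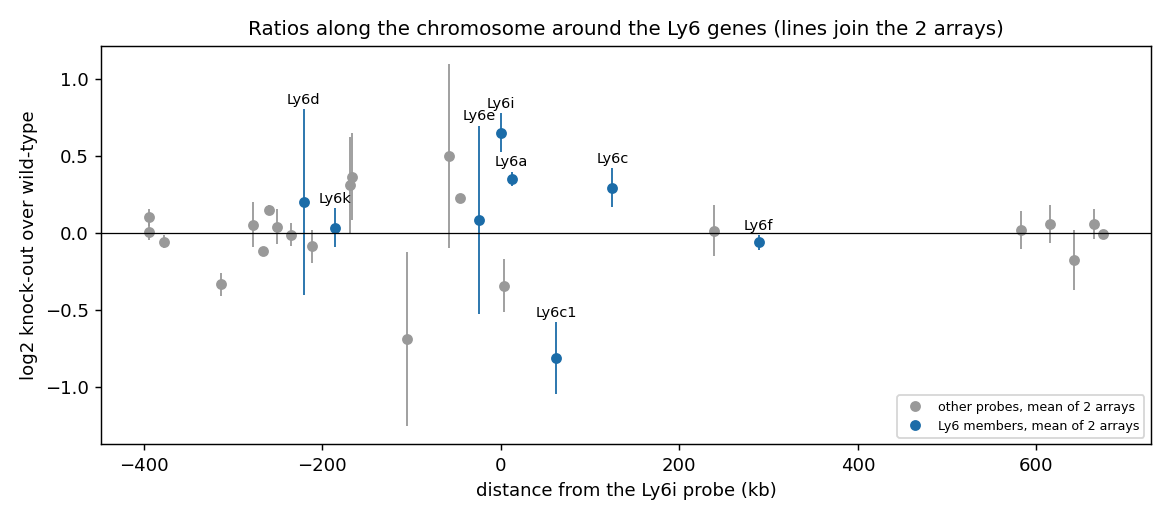
Mean log2 knock-out over wild-type (points) and the range over 2 arrays (lines) of kept probes, against the distance of each probe from the Ly6i probe in kb; Ly6 members are blue and other probes grey. Ly6i and the Ly6c1 RefSeq probe, 62.2 kb apart, have the highest and the lowest mean in the window, 0.65 and -0.81.

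Other genes of the Ly6 and uPAR family gave no called gene. Of 35 listed, 29 were on the array under a name that matched and 20 were tested. Some of the 20, Ly6m, Gml and Psca included, were also counted among the chromosomal neighbours above. None of the 20 passed limma's threshold in either direction, and 1 was higher and 1 lower at an unadjusted p under 0.05. On both arrays 5 were higher and 3 lower, 12 had opposite signs, and the median of the 20 was 0.05. In limma's fit over all genes 0.102% passed and 9.12% had an unadjusted p under 0.05. Over all genes 24.2% were higher on both arrays and 30% lower on both. Nothing is read from the absence of called genes here or among the anchor genes below. Cd59a, which blocks the complement membrane attack complex, had 0.56 and 0.24, a mean of 0.40 (adjusted p = 0.446 in limma's fit), while its other probe was not well above background in the knock-out on either array and was left out. Plaur, the urokinase receptor, had 0.06 and 0.20 at the brighter probe and 0.20 and 0.69 at the other. Ly6m had the lowest mean, -0.69 (adjusted p = 0.455). Gml had -0.0050 and 0.62. Psca, a GPI-anchored antigen first described in prostate, had -0.11 and -0.13, and Lynx1, which binds nicotinic acetylcholine receptors, had -0.08 and 0.06. The genes that build the anchor and attach it to proteins also gave none: of 29 tested, 0 passed in either direction and 0 had an unadjusted p under 0.05, 8 were higher on both arrays, 5 lower on both and 16 opposite, with a median of 0.05. The largest absolute means were -0.29 for Pigyl and -0.22 for Pigv.

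Genes induced by interferons are given because several Ly6 genes are among their known targets. Of 29 genes induced by interferon gamma, 3 were past the threshold and rose in the knock-out, and 0 fell. At an unadjusted p under 0.05 in limma's fit, 15 rose and 0 fell. The lists were chosen with earlier results of these data known, so nothing is read from these counts. Over all genes 0.102% passed, and 9.12% (1614 of 17691) had an unadjusted p under 0.05. Iigp1, an immunity-related GTPase, had a mean of 1.84 (adjusted p = 0.0315 in limma's fit). Serpina3g had 1.42 (adjusted p = 0.0316, a scaled-up probe) and Serpina3f 1.13 (adjusted p = 0.0493), both of the serpin family of protease inhibitors. With the deposited table, no gene on the array was past the threshold, these 3 included, and 1552 genes had an unadjusted p under 0.05 there. On both arrays 22 of the 29 were higher and 1 was lower, and the median was 0.34, beside -0.01 over all genes. Of 29 type I interferon stimulated genes none passed the threshold (1 higher and 4 lower at an unadjusted p under 0.05), 2 were higher on both arrays and 12 lower on both, and the median was -0.19. The median was -0.27 on array 1 and 0.01 on array 2, so the median of the list was below 0 on array 1 only. The largest means were those of the antiviral genes Ifit1, -0.75 (-1.59 and 0.08), and Rsad2, -0.73 (-1.11 and -0.35). Ly6 promoters could be read for 2 members only, from the RefSeq table of the GRCm38.p6 build, which holds 2 starts for Ly6c1 and 1 for Ly6f. On either strand of these 300-base windows, the interferon gamma motif GAS (TTCNNNGAA), which 8.30% of all such promoters hold, was not found. The interferon-stimulated element ISRE, held by 3.44%, was not found either. The kappa B motif, whose loose form was searched and is held by 50.8%, was in both Ly6c1 windows and not in that of Ly6f. These searches describe letters only.

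The 5 genes whose pair of ratios lay nearest to that of Ly6i (0.53 and 0.78), by Euclidean distance over the 2 arrays, were Dll1, H2-DMa, Il2rg, Mns1 and Xbp1. Dll1, a ligand of Notch receptors, had 0.50 and 0.74, at a distance of 0.0447. H2-DMa, which loads peptides onto class II molecules, had 0.50 and 0.74 (0.0467, a scaled-up probe). Il2rg, the common gamma chain of several cytokine receptors, had 0.58 and 0.75 (0.0568), and Mns1 had 0.51 and 0.71 (0.0647). Xbp1, a transcription factor of plasma cells, had 0.55 and 0.85 (0.0792). With 2 values per gene, likeness rests on very little.

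Markers of the cells a sorted B cell pool could hold were read beside the Ly6 values, since Ly6 proteins also mark other cells. In bulk RNA, fewer cells of a type and less RNA per cell cannot be told apart. All 12 B lineage markers were tested and none was called, beside 0.102% over all genes, with a median of 0.13, 10 of them at scaled-up probes. On both arrays 3 were higher and 2 lower, and 7 had opposite signs. The largest absolute means were -0.82 for Pax5 (-0.79 and -0.86) and -0.31 for Fcrla (-0.26 and -0.35), both scaled up. The summed level of the 12 B lineage markers was 647223 and 464245 in the knock-out pools and 429198 and 649685 in the wild-type pools. It was higher in the Cy5 pool of each array. Of 13 tested T cell markers (Cd247 was not tested), 0 passed, 2 were higher on both arrays and 7 lower on both, and the median of the mean ratios was -0.36. Taken within an array, the median was -0.03 on array 1 and -0.25 on array 2. The lowest were Thy1 at -0.78 and Cd3d at -0.60. The summed T cell level, on the linear scale, was 16075 and 11951 in the knock-out pools and 14405 and 12010 in the wild-type pools. Of 10 tested myeloid and dendritic markers (Ccr2, S100a8 and Siglech were not tested) none was called, with a median of 0.02. Their summed level was still higher in the Cy5 pool of each array. It was 11388 in the knock-out against 6903 in wild-type on array 1, and 9722 against 11905 on array 2. Such linear sums are weighted to the brightest probe. That was Lyz2 (ratios 1.22 and -0.60) for the myeloid list and Lck (0.22 and 0.10) for the T cell list. Of 4 tested NK cell markers (Eomes, Gzma and Ncr1 were not) none was called, the median was 0.01, and sums ran from 616 to 809 in the knock-out and from 684 to 791 in wild-type. Of 9 tested stromal and endothelial markers (Emcn, Pdgfra, Pdgfrb and Pdpn were not) none was called, the median was 0.09, and sums of 2904 and 3217 in the knock-out stood beside 2927 and 3291. Among 13 plasma cell genes 1 rose, Jchain, the joining chain of secreted antibodies (mean 1.81, adjusted p = 0.0179 in limma's fit), and 0 fell (3 and 2 at an unadjusted p under 0.05), with a median of -0.11. At an unadjusted p under 0.05, limma's fit had 6 T cell markers lower and 0 higher. It had 1 B lineage marker higher and 2 lower, 1 myeloid marker lower, 1 NK cell marker in each direction and 2 stromal markers higher. Some of these lower T cell markers passed the background filter only through wild-type, and a stromal marker only through the knock-out. Their direction was thus favoured by the filter, and nothing is read from it. The part of these cells in the Ly6 values was not tested.

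**Figure D4:**
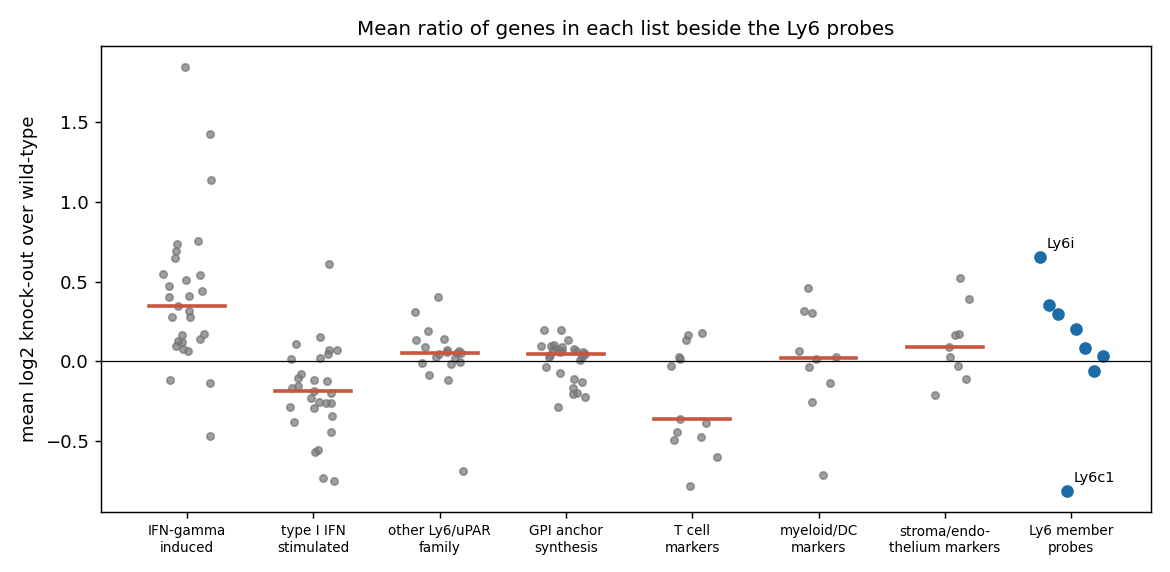
Mean log2 knock-out over wild-type of each tested gene in 7 lists (grey points, red line at the median) and of the 8 Ly6 probes (blue). The interferon gamma list lies mostly above 0 with a median of 0.34, the T cell markers have a median of -0.36 (-0.03 on array 1 and -0.25 on array 2 alone), and the Ly6 probes run from -0.81 (Ly6c1 RefSeq) to 0.65 (Ly6i).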

How the data were processed

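Both arrays were quantified with Agilent Feature Extraction 9.5.3.1, per the submitters' processing notes. The authors deposited spot intensity values and, per the file headers, a log10 ratio of Cy5 over Cy3 that the program had background-subtracted and dye-normalized. The deposited value table holds log2 ratios, equal to that ratio, given as knock-out relative to wild-type, at 42512 and 42515 of 43379 spots (tolerance 0.001). The 867 and 864 others all carried the low-gain flag. The column medians were 0.

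From the intensities, limma 3.58.1 under R 4.3.3 corrected the background (normexp, offset 50), which shrinks ratios of dim probes towards 0, and normalized each array by loess (span 0.3, 4 iterations, 1639 control spots at weight 0). Outlier spots were left out and spots of a probe averaged. Levels were scaled between arrays by Aquantile. A probe was kept where 1 genotype was above background on both arrays, and the brightest kept probe stood for its gene. Of 41174 probes, 24375 were named by accession, 6301 by symbol and 2426 by synonym. The oriented ratios were fitted with lmFit and eBayes (two-sided, Benjamini-Hochberg over 17691 genes, threshold 0.05; 1 residual and 6.18 prior degrees of freedom), and the fit was tested on simulated data. There it recovered most changed genes but also called more unchanged genes than the threshold allows, so adjusted p-values here can be too small. The simulated ratios used limma's own variances and independent noise on each array. The ratios of the brightest decile correlated at r = -0.50 between arrays, so the recovery does not carry over to such probes. With 2 arrays, p-values rest mostly on the pooled spread.

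Named were all members, their family, and from each other list up to 4 called genes or else the 2 largest means (B lineage markers, T cell markers and chromosomal neighbours likewise). The 5 genes nearest Ly6i, Ccr7 and the brightest T cell and myeloid markers were named too. Cell type markers are B lineage, T cell, NK cell, myeloid and stromal. The members and lists were chosen with earlier results of these data known.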

Additional observations from a re-analysis of the deposited data

How the results depend on the processing

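The number of genes past the threshold depended on the processing. It was 18 as reported. It was 0 with no background correction, with no within-array normalization, with the scanner program's ratio, with the deposited table, with the mean of a gene's probes, and with separate channels and no replicate block, which drops the pairing of pools within an array. In these 6 alternatives, in that order, limma gave 1571, 89, 1481, 1552, 1574 and 364 genes an unadjusted p under 0.05, against 1614 as reported. The adjusted count was 4 with median centring, 9 where both channels had to be above background, 31 with each probe tested separately, 78 with an intensity trend and robust prior, and 127 without scaled-up probes. With plain background subtraction it was 12 and with no dim-probe filter 19. Leaving out an array leaves no residual degree of freedom and so no count. The causes were not tested.

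The Ly6i ratio of 0.65 kept its sign in 9 of 9 alternatives, with 0.33 under median centring, 0.11 with no normalization, and 0.53 to 0.78 with 1 array alone. These alternatives are not independent checks. They include each array alone, and the scanner program's ratio and the deposited table hold the same Ly6i value. Elsewhere the sign is that of the mean: with no within-array normalization, array 2 itself had -0.41. Ly6i was also chosen as higher in this contrast. The sign of the Ly6c1 RefSeq probe was kept in 10 of 10, of Ly6f in 9 of 9, of Ly6a in 8 of 9, of the D86232 probe in 8 of 10, of Ly6k in 6 of 9, of Ly6d in 4 of 9 and of Ly6e in 3 of 9. The number of arrays limits every value, and the brightest probes depend on how the low-gain scan was scaled.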
